A study of Mus musculus with 24 samples.

Results

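The mRNAs described here are those of the translation initiation factors and the translation elongation factors, taken as every protein-coding gene whose symbol starts with Eif or Eef. The annotation held 69 such genes, and 68 of them had a row among the 47643 gene identifiers of the count files. Eef1akmt4 had none. By role they fell into the eIF2 family (13 genes), the eIF3 family (14 genes), the eIF4 family (16 genes), the elongation family (15 genes) and the other initiation factors (10 genes).

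The study asked what loss of Tsc2, a brake on the kinase complex mTORC1, does to nociceptors, and RNA-seq was performed on cells of the L4 dorsal root ganglia (DRG) sorted for a green reporter. All mice carried Nav1.8-Cre and the reporter Rosa26-ZsGreen, and control mice were Tsc2 flox/+ whereas Nav-Tsc2 mice were Tsc2 flox/null, so both genotypes had a floxed allele. There were 4 mice per genotype, 2 male and 2 female, of mixed C57BL/6 and AJ background and aged 8 to 9 weeks, and each mouse gave 3 libraries of 100 cells. In all mice the sciatic nerve of the other side had been crushed 3 d before, so these ganglia were uninjured. The Nav1.8-Cre driver acts mainly in nociceptors and also in some myelinated sensory neurons, the null allele of Nav-Tsc2 mice was present in every cell of the animal, and the controls had 1 floxed allele that the driver could delete.

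Libraries held between 8339220 and 34228180 counts on genes, and the 3 libraries of a mouse, which were summed, held between 47959617 and 61290435. Levels are given as CPM, the share of a mouse's counts scaled to 1e6 after TMM scaling, and a gene was called when its adjusted p (edgeR quasi-likelihood test, all 17178 genes tested) was under 0.05 and its log2 fold change was over 0.5 or under -0.5. Tsc2 ranged from 13.4 to 24.7 CPM in control mice and from 7.30 to 10.95 CPM in Nav-Tsc2 mice, without overlap (log2 fold change -1.24 ± 0.22 SE, adjusted p = 0.00400). Those counts cover the whole gene and do not separate the deleted part. Of 8 nociceptor and neuron markers, summed at 13199 to 16265 CPM in control and 14203 to 16586 CPM in Nav-Tsc2 mice, 4 were called lower and 1 higher. Of 11 glial markers, summed at 2970 to 3111 CPM in control and 1949 to 2543 CPM in Nav-Tsc2 mice, S100b alone was called by edgeR, and it was lower, while DESeq2 called 2. Of 5 endothelial markers, the 3 tested were called higher. The 5 together summed to 0.305 to 1.85 CPM in control and 7.46 to 19.9 CPM in Nav-Tsc2 mice. Cldn5 and Pecam1 were not tested, and Cldn5 stayed under 0.5 CPM in every mouse. Pecam1 was not higher, with a mean of 0.422 CPM in control and 0.315 CPM in Nav-Tsc2 mice, and its groups overlapped. Of 6 macrophage markers, summed at 1.77 to 6.33 CPM in control and 7.76 to 19.4 CPM in Nav-Tsc2 mice, Cx3cr1 was called higher by edgeR and 2 markers were called by DESeq2, while C1qa stayed under 0.5 CPM in every mouse. C1qb had a log2 fold change of -1.60 ± 1.38 and Aif1 of 0.34 ± 0.87, and both overlapped between genotypes. Csf1r and Cd68 had 2.21 ± 0.91 and 2.03 ± 0.96 without overlap, and edgeR did not call them. Red blood cell markers, of which 0 of 3 tested were called by edgeR, summed to 1.63 to 2.80 CPM in control and 0.473 to 0.672 CPM in Nav-Tsc2 mice; all 3 had an unadjusted p under 0.05, and DESeq2 called 1. The part of these cells in the values below was not tested. In sorted pools, fewer cells of a type and less RNA per cell cannot be told apart.

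Translation starts when eIF2, bound to GTP and the initiator tRNA, joins the small ribosomal subunit, a step that eIF2B resets by exchanging the nucleotide and that 4 stress-responsive kinases block by phosphorylating eIF2. The scaffold eIF3 and the cap-binding complex eIF4F, made of eIF4E, eIF4G and the helicase eIF4A, bring the mRNA. mTORC1 acts on this machinery mainly through proteins already made: it phosphorylates the 4E-BPs, which then release eIF4E, and through S6 kinase it restrains eEF2 kinase, the brake on elongation. Elongation then proceeds through eEF1A, which delivers aminoacyl-tRNAs, and eEF2, which moves the ribosome along.

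Most of these mRNAs differed little between genotypes. Of 66 members tested, 7 were called higher and 3 lower in Nav-Tsc2 mice. The background over all genes tested was 9.12% called higher and 8.00% called lower, and the 15.2% of members called lay near the 17.1% of all genes called. The members called higher were Eif2ak3, Eif3b, Eif4e2, Eif4ebp1, Eif5, Eif6 and Eef2k, and those called lower were Eif4a2, Eif4e3 and Eef2kmt. At any fold, 13 members were higher and 6 lower at an adjusted p under 0.05, against a background of 10.8% higher and 10.2% lower. The 4 control and 4 Nav-Tsc2 mice did not overlap for 27 members (40.9%), where 26.9% of all genes tested did not overlap. Most members were well measured: 58 of them averaged at least 10 CPM, and of these 15.5% were called and 44.8% did not overlap, against 22.9% and 35.7% of all genes above that level. The median log2 fold change was 0.03 over the members and 0.01 over all genes tested, and the quartiles of the members were -0.22 and 0.27, against -0.39 and 0.44 for all genes tested.

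By family, the calls were few and of both signs, and differences between families were not tested. In the eIF2 family 1 of 13 members was called, with a median log2 fold change of 0.04. The eIF3 family had 1 of 14 called and a median of -0.01. The eIF4 family had 4 of 14 tested members called, 2 in each direction, and a median of 0.15. In the elongation family 2 of 15 were called, 1 in each direction, and the median was -0.14. The summed level of that family went the other way, from 1985 to 2135 CPM in control and from 2139 to 2228 CPM in Nav-Tsc2 mice, without overlap. Its mean went from 2093 to 2167 CPM, and that of Eef2 alone from 454 to 547 CPM. In the family 7 members had a positive and 8 a negative log2 fold change, so the sum does not describe a shared rise. No sum without Eef2 was made. Among the other initiation factors 2 of 10 were called, both higher, and the median was 0.02. Summed levels of the eIF4 family ranged from 2574 to 2737 CPM in control mice and from 2167 to 2342 CPM in Nav-Tsc2 mice. A single gene made up much of that sum, since Eif4a2 accounted for 48.4% of it in control and 33.8% in Nav-Tsc2 mice. Without Eif4a2 the family summed to between 1329 and 1410 CPM in control and between 1476 and 1483 CPM in Nav-Tsc2 mice, which was the opposite order. Summed levels of all members overlapped between genotypes, at 8347 ± 96.7 CPM in control and 8111 ± 139 CPM in Nav-Tsc2 mice (SD, n = 4).

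**Figure D1:**
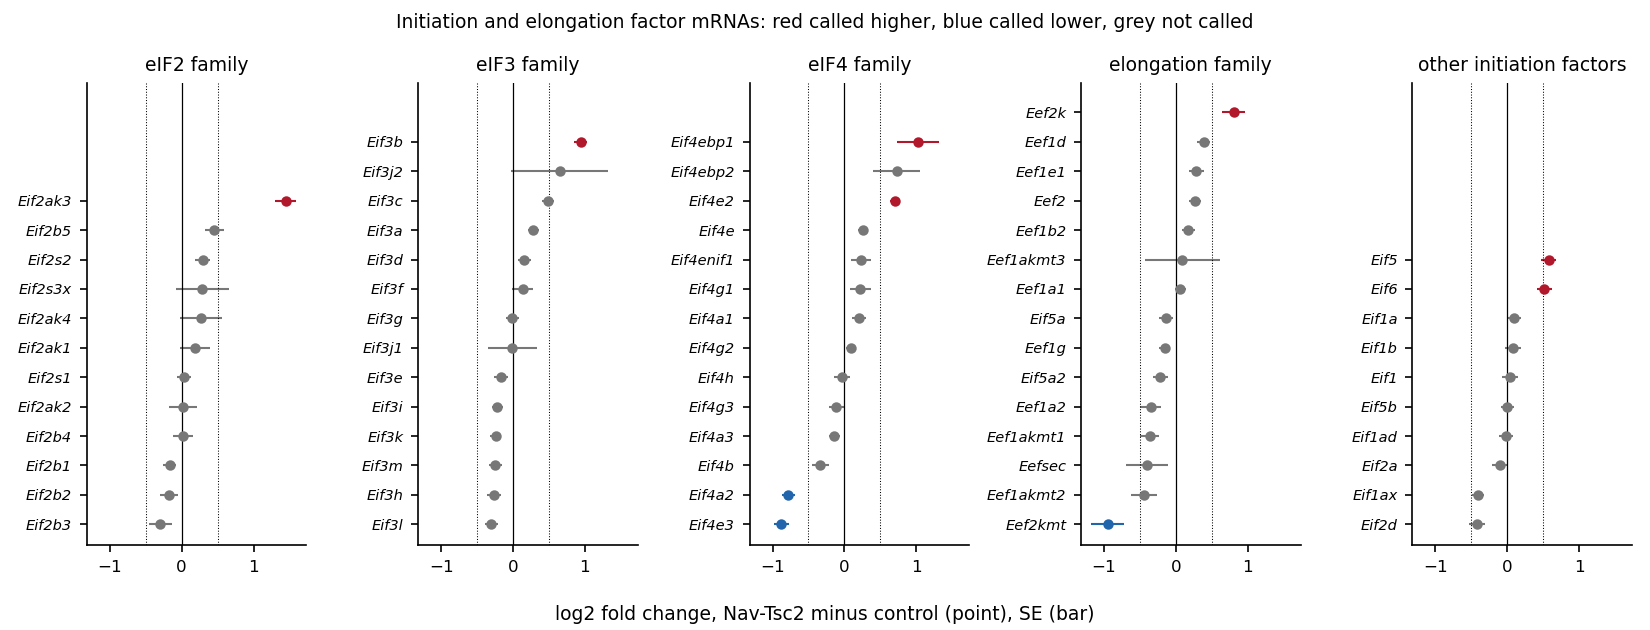
Log2 fold change between Nav-Tsc2 and control mice (point) with its SE (bar) for 65 tested members, Eif2s3y left out, in 1 panel per family; dotted lines mark 0.5 and -0.5. The 7 red points are the members called higher and the 3 blue points those called lower, and Eif2ak3 lies farthest from 0 at 1.45.

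The cap-binding complex and its helpers held 2 of the 3 members called lower, Eif4a2 and Eif4e3, and 1 called higher, Eif4e2. Eif4a2 encodes an eIF4A helicase that unwinds the 5′ end of mRNAs, and it had the highest level per length of all members, at 243 CPM per kb of exon in control mice. Its gene lies on the plus strand of chr16:23107444-23114136 (GRCm38). It was measured at 1401, 1265, 1186 and 1340 CPM in control mice and at 730, 692, 859 and 744 CPM in Nav-Tsc2 mice. Every Nav-Tsc2 mouse lay below every control mouse, and 11 of the 12 Nav-Tsc2 libraries lay below the lowest control library. The log2 fold change was -0.78 ± 0.09 (SE, adjusted p = 0.000428, edgeR), a level 1.72-fold lower. The sister helicase Eif4a1 ranged from 63.6 to 79.4 CPM in control and from 82.5 to 93.9 CPM in Nav-Tsc2 mice. Its groups did not overlap, but its log2 fold change of 0.20 ± 0.10 did not pass the test (adjusted p = 0.175, edgeR). Per length, Eif4a2 therefore supplied 93.3% ± 0.884 of the mRNA of the pair in control and 87.7% ± 0.439 in Nav-Tsc2 mice (SD, n = 4), without overlap. Identical 50-base stretches in other annotated genes covered 28.4% of the Eif4a1 transcripts and 13.6% of those of Eif4a2, and reads from such stretches map to more than 1 place or gene, so that the count may leave them out. Eif4a3, the eIF4A relative that marks exon junctions, had 68.2 to 77.0 CPM in control and 64.3 to 66.9 CPM in Nav-Tsc2 mice (log2 fold change -0.14 ± 0.08, adjusted p = 0.248, edgeR).

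The 3 genes of the eIF4E type did not share a direction. Eif4e3, an atypical cap binder, lies on the minus strand of chr6:99625135-99666771. It had 40.4, 38.4, 38.5 and 33.3 CPM in control mice and 20.8, 19.0, 20.4 and 21.9 CPM in Nav-Tsc2 mice, with no overlap (log2 fold change -0.88 ± 0.11, adjusted p = 0.000652, edgeR). Another annotated gene, Gm20696, covered 14.8% of its exons. Eif4e2, also known as 4EHP, a cap binder that does not bind eIF4G and acts in repression, lies on the plus strand of chr1:87213914-87240488. It was found at 76.4, 78.6, 79.2 and 79.3 CPM in control mice and at 121, 127, 132 and 130 CPM in Nav-Tsc2 mice. All 12 Nav-Tsc2 libraries were above the highest control library, which had 97.6 CPM, and the log2 fold change was 0.70 ± 0.07 (adjusted p = 0.000219, edgeR). Eif4e, the canonical cap-binding subunit, ranged from 141 to 149 CPM in control and from 162 to 186 CPM in Nav-Tsc2 mice. It passed on adjusted p alone (log2 fold change 0.26 ± 0.07, adjusted p = 0.0356, edgeR), under the fold limit. Of the summed level per length of the 3 genes, Eif4e held 48.7% ± 1.39 in control and 53.3% ± 0.995 in Nav-Tsc2 mice, Eif4e2 went from 21.1% ± 0.821 to 31.6% ± 1.02, and Eif4e3 from 30.2% ± 1.87 to 15.1% ± 0.701 (SD, n = 4). None of these 3 shares overlapped between genotypes. The germ cell gene Eif4e1b had 2 counts over all mice and was not tested.

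The bases before the annotated starts of Eif4a1, Eif4a2, Eif4e and Eif4e2 are shown. Eif4a1 and Eif4a2 had log2 fold changes of opposite sign, of which only that of Eif4a2 passed the test. Those of Eif4e and Eif4e2 had the same sign, and Eif4e3, which was lower, is not shown. Each line gives the 250 bases before a RefSeq start (GRCm38.p6), with matches to CACGTG (the E-box), CCGGAAG (an ETS factor core) or TGATGNAAN (the composite element of ATF4 and C/EBP factors) on either strand in capitals. Where a gene had several starts, the window with the most matches is shown, or the first listed where windows tied.
Eif4a1, minus strand of chr11:69672424-69672673: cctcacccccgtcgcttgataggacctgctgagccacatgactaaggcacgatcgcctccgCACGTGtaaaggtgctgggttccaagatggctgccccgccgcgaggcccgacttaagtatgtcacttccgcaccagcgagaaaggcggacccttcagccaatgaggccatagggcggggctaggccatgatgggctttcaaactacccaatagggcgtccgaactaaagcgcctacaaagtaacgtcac
Eif4a2, plus strand of chr16:23107218-23107467: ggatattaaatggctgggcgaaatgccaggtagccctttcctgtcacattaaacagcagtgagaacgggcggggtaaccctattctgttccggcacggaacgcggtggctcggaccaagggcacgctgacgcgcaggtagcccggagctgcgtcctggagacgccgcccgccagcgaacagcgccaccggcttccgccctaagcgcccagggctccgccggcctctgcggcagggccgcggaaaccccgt
Eif4e, plus strand of chr3:138527018-138527267, 1 of 2 annotated starts: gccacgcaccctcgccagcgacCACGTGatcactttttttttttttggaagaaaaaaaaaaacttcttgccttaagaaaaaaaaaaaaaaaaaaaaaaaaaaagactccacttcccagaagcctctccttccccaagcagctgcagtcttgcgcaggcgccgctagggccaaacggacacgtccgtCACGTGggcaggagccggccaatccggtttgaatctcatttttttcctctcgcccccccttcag
Eif4e2, plus strand of chr1:87213689-87213938, 1 of 3 annotated starts: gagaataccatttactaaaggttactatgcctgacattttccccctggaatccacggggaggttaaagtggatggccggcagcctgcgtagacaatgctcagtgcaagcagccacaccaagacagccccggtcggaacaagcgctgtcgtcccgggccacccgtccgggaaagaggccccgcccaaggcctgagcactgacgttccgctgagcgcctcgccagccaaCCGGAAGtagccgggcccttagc

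The Eif4a1 and Eif4e windows held CACGTG, the Eif4e2 window held CCGGAAG, and the Eif4a2 window held neither. RefSeq windows were found for 52 of the 68 members, and a gene was counted when any of its windows held the letters. CACGTG occurred in 11 of the 52 (21.2%), against 6.86% of 27025 genes with such a window. By family it was found in 4 of 11 eIF4 windows, 4 of 11 elongation windows, 2 of 10 eIF3 windows, 1 of 8 windows of the other initiation factors and 0 of 12 eIF2 windows. CCGGAAG occurred in 12 of the 52 (23.1%), against 7.83% of all genes with a window, and 5 of those 12 were eIF3 subunits. CCAAT, the CCAAT box, which is not capitalised in the lines above, occurred in 15 of the 52 (28.8%), against 37.5% of all genes with a window. TGATGNAAN occurred before 2 members, Eef2k and Eif2s3x (3.85%), against 3.89% of all genes with a window. Genes with CACGTG had a median log2 fold change of 0.14 (n = 11) and those without it of 0.02 (n = 41), and no test was made of this difference. The members and all genes with a window were not matched for number of starts, GC content or expression. A match is a stretch of letters and no measure of binding.

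The 4E-BPs, which hold eIF4E away from eIF4G, had low levels. Eif4ebp1 lies on the plus strand of chr8:27260329-27276674. It had 6.25, 4.32, 3.38 and 3.23 CPM in control mice and 9.44, 11.5, 7.55 and 6.36 CPM in Nav-Tsc2 mice. The lowest Nav-Tsc2 mouse was just above the highest control mouse, and the log2 fold change was 1.02 ± 0.29 (adjusted p = 0.0341, edgeR). This call was lost in 6 of the 8 fits that left out a mouse, those without control replicates 2, 3 or 4 or Nav-Tsc2 replicates 1, 2 or 3, with adjusted p up to 0.112 (edgeR). Eif4ebp2, the main 4E-BP of brain, ranged from 1.57 to 2.53 CPM in control and from 2.37 to 4.47 CPM in Nav-Tsc2 mice, and its groups overlapped (log2 fold change 0.73 ± 0.33, adjusted p = 0.150, edgeR). Eif4ebp3 had 1 count over all mice and was not tested.

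The other 6 genes of the eIF4 family were not called. The eIF4G scaffolds ranked the same way by level per length in both genotypes, with Eif4g2 at 61.3 CPM per kb in control and 65.6 in Nav-Tsc2 mice, Eif4g3 at 8.38 and 7.74, and Eif4g1 at 3.53 and 4.12. The log2 fold changes of these 3 were 0.10 ± 0.07, -0.11 ± 0.10 and 0.22 ± 0.14. The helicase cofactors Eif4b and Eif4h had log2 fold changes of -0.33 ± 0.11 (adjusted p = 0.0669, edgeR) and -0.03 ± 0.11. Eif4enif1, which carries eIF4E into the nucleus, had 0.23 ± 0.14.

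**Figure D2:**
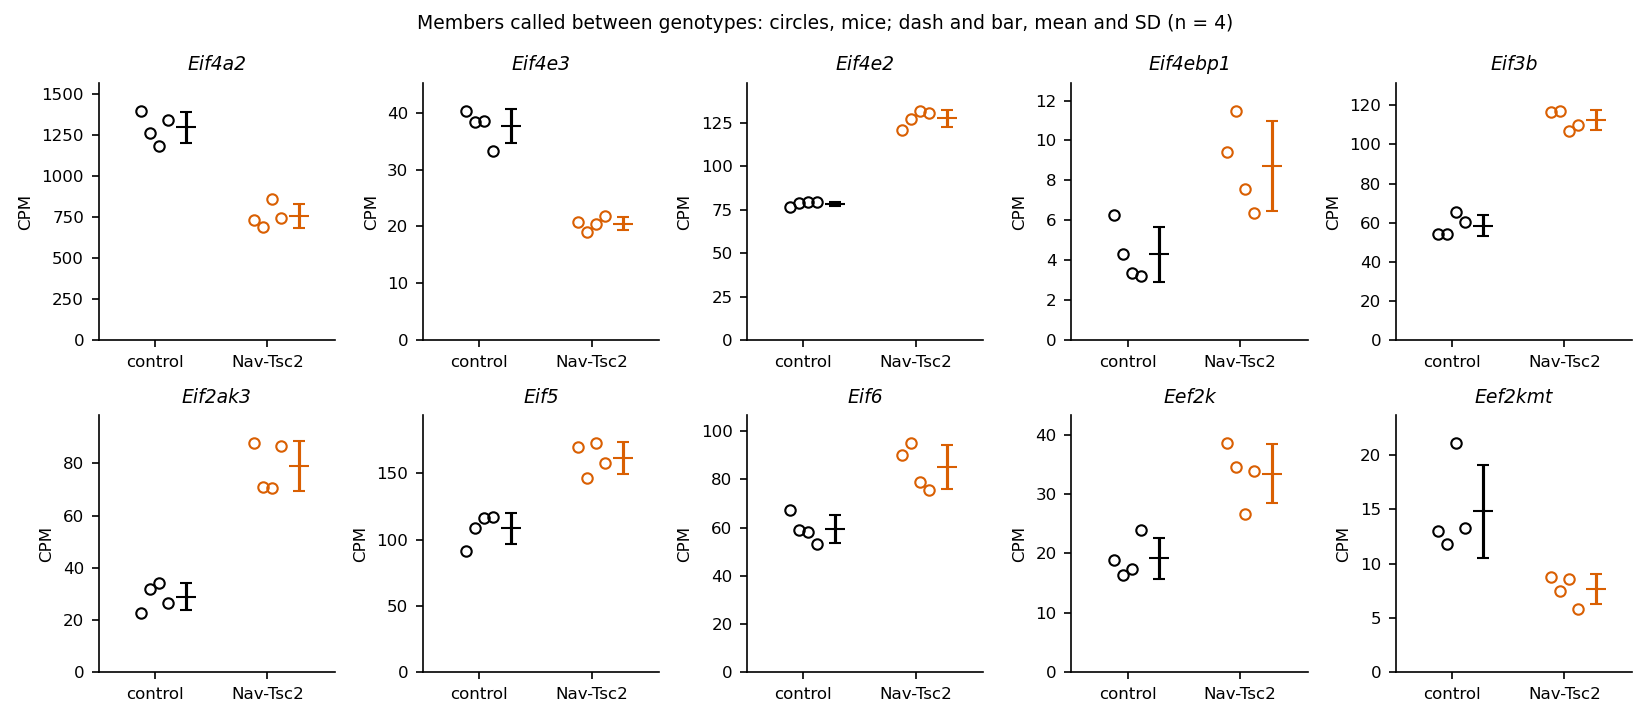
CPM of the 10 called members in each mouse (circles) with the mean and SD of the 4 mice per genotype, each panel with its own axis from 0. No panel shows overlap between genotypes, and the gap is narrowest for Eif4ebp1, between 6.25 CPM in the highest control mouse and 6.36 CPM in the lowest Nav-Tsc2 mouse.

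In the eIF2 family the kinase Eif2ak3 stood apart. It encodes PERK, which senses unfolded protein in the endoplasmic reticulum and phosphorylates eIF2. The gene lies on the plus strand of chr6:70844515-70905245. It was measured at 22.7, 32.1, 34.3 and 26.7 CPM in control mice and at 87.9, 71.0, 70.5 and 86.6 CPM in Nav-Tsc2 mice. The mice of the genotypes were far apart, and the libraries did not overlap, with 48.6 CPM in the highest control library and 53.4 CPM in the lowest Nav-Tsc2 library. The log2 fold change was 1.45 ± 0.15 (adjusted p = 0.000264, edgeR), a level 2.73-fold higher. The annotated gene Gm43292 covered 8.05% of its exons.

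The other 3 eIF2 kinases overlapped between genotypes. Eif2ak1, the heme-regulated kinase, ranged from 16.0 to 32.8 CPM in control and from 27.8 to 33.98 CPM in Nav-Tsc2 mice (log2 fold change 0.18 ± 0.21, adjusted p = 0.597, edgeR). Eif2ak2, the kinase PKR that responds to double-stranded RNA, ranged from 24.1 to 47.1 CPM and from 29.8 to 39.0 CPM (0.02 ± 0.19, adjusted p = 0.960, edgeR), and under upper-quartile scaling its sign turned, at -0.01. Eif2ak4, the amino acid sensor GCN2, ranged from 4.88 to 9.93 CPM and from 5.90 to 10.2 CPM (0.27 ± 0.29, adjusted p = 0.563, edgeR). By level per length the order in control mice was Eif2ak2 at 6.63 CPM per kb, Eif2ak1 at 4.815, Eif2ak3 at 4.805 and Eif2ak4 at 0.864. In Nav-Tsc2 mice Eif2ak3 led at 13.1 CPM per kb. Its share of the summed level per length of the 4 kinases was 28.4% ± 5.85 in control and 49.7% ± 2.60 in Nav-Tsc2 mice (SD, n = 4), without overlap.

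Of the 9 genes of the substrate and its exchange factor, eIF2 and eIF2B, 0 were called by edgeR or DESeq2, and 2 had an unadjusted p under 0.05 in each. Eif2s1, the alpha subunit that the kinases phosphorylate, ranged from 121 to 138 CPM in control and from 119 to 155 CPM in Nav-Tsc2 mice (log2 fold change 0.04 ± 0.10). Eif2s2, the beta subunit, had the smallest adjusted p of the eIF2 subunits, at 0.0778 (edgeR), with a log2 fold change of 0.29 ± 0.11. Of the 5 subunits of eIF2B, Eif2b5, the catalytic one, ranged from 32.5 to 45.1 CPM in control and from 47.4 to 58.7 CPM in Nav-Tsc2 mice without overlap. Its log2 fold change of 0.46 ± 0.13 had an adjusted p of 0.0316 (edgeR) and was under the fold limit; over the alternatives that kept all mice the adjusted p ranged from 0.00124 to 0.0831. The other 4 lay between -0.30 and 0.02 and overlapped. Eif2b1 had the highest level per length of the 5, at 37.1 CPM per kb in control and 33.1 in Nav-Tsc2 mice.

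The gamma subunit of eIF2 has a copy on the X chromosome and one on the Y. Eif2s3y had 55.1 and 54.6 CPM in the male control mice, 46.2 and 32.2 CPM in the male Nav-Tsc2 mice and 0 counts in all 4 female mice. Against a floor of 3 counts over the female mice, which was 0.0133 CPM, the male mean of 47.0 CPM was at least 3532-fold higher. It was the 1 member that differed by sex, where 0.0291% of all genes tested were called (adjusted p = 0.000260, edgeR). Eif2s3x was found at 3.30 to 4.01 CPM in males and at 5.48 to 8.65 CPM in females. Males and females did not overlap, but the log2 difference of -0.95 (male minus female) had an adjusted p of 0.655 (edgeR). Other annotated genes shared 34.6% of the 50-base stretches of Eif2s3x, so that its level is uncertain. For the interaction of genotype and sex, 0 members had an adjusted p under 0.05, where 0.00582% of all genes tested did. At an unadjusted p under 0.05 the edgeR fit had 2 members, Eif2a and Eif2b5 (3.03%, against 9.22% of all genes tested). DESeq2 also had 2 members (3.03%, against 10.4% of all genes tested). After adjustment DESeq2 had 0 members, where 296 of 17178 genes passed. Each combination of sex and genotype had 2 mice.

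**Figure D3:**
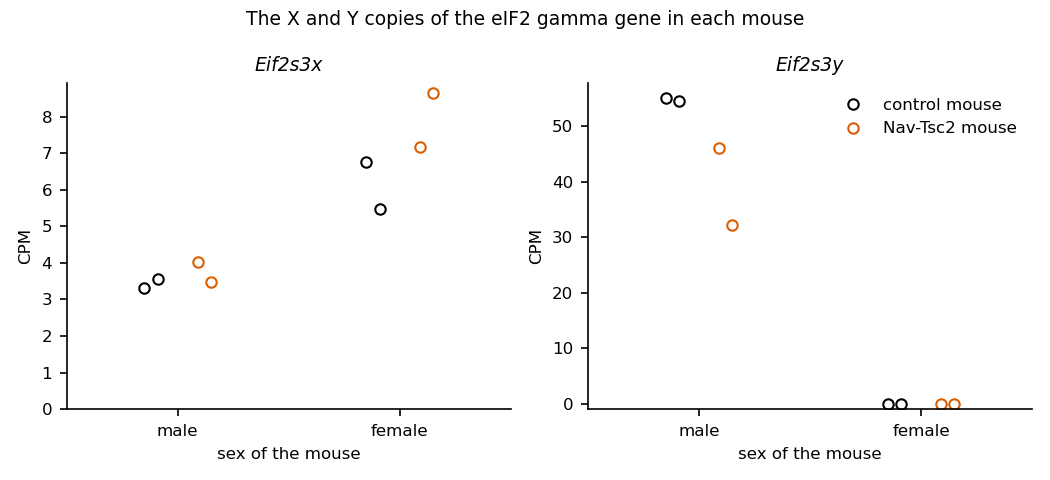
CPM of Eif2s3x (left) and Eif2s3y (right) in each of the 8 mice by sex, with control mice in black and Nav-Tsc2 mice in orange. Eif2s3y lies between 32.2 and 55.1 CPM in the 4 males and at 0 in the 4 females, and Eif2s3x is higher in each female than in any male.

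The eIF3 subunits did not move as a block. Eif3b, a core scaffold subunit, lies on the plus strand of chr5:140419328-140443360. It had 54.2, 54.4, 65.4 and 60.3 CPM in control mice and 117, 117, 107 and 110 CPM in Nav-Tsc2 mice. All 12 Nav-Tsc2 libraries, from 92.3 CPM upwards, were above the highest control library at 89.6 CPM. The log2 fold change was 0.94 ± 0.09, with the smallest adjusted p of all members (0.000176, edgeR). Eif3c and Eif3a, which were chosen after their values were seen and form the core of the complex with Eif3b, went the same way below the fold limit. Eif3c ranged from 158 to 187 CPM in control and from 220 to 250 CPM in Nav-Tsc2 mice (log2 fold change 0.48 ± 0.08, adjusted p = 0.00311, edgeR). Eif3a ranged from 197 to 216 CPM and from 228 to 273 CPM (0.28 ± 0.08, adjusted p = 0.0322, edgeR).

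Other subunits had lower values in Nav-Tsc2 mice, and 1 of them passed the test on adjusted p alone. Eif3l, likewise chosen after its values were seen, ranged from 192 to 235 CPM in control and from 156 to 176.9 CPM in Nav-Tsc2 mice (log2 fold change -0.30 ± 0.09, adjusted p = 0.0352, edgeR). Eif3k, the subunit with the highest level per length at 85.1 CPM per kb in control mice, ranged from 222 to 236 CPM and from 180 to 212 CPM, and its log2 fold change of -0.24 ± 0.08 missed the threshold (adjusted p = 0.0504, edgeR). Eif3i, Eif3m and Eif3h had log2 fold changes of -0.22 ± 0.08, -0.25 ± 0.09 and -0.26 ± 0.10, with adjusted p of 0.0684, 0.0951 and 0.0889 (edgeR). The other 4 subunits outside Eif3j, which were Eif3d, Eif3e, Eif3f and Eif3g, lay between -0.16 and 0.16 and overlapped between genotypes, and another gene covered 43.3% of the exons of Eif3d. The 2 Eif3j genes were at or below 4.11 CPM in every mouse, and 50.9% of the 50-base stretches of Eif3j1 and 91.9% of those of Eif3j2 were shared with other genes. Over the 12 subunits outside Eif3j, the SD of log2 level per length within a mouse was 0.84 to 0.95 in control and 0.71 to 0.82 in Nav-Tsc2 mice, which did not overlap. The ratio of the highest to the lowest subunit did overlap, at 5.13 to 7.57 in control and 4.34 to 5.78 in Nav-Tsc2 mice.

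**Figure D4:**
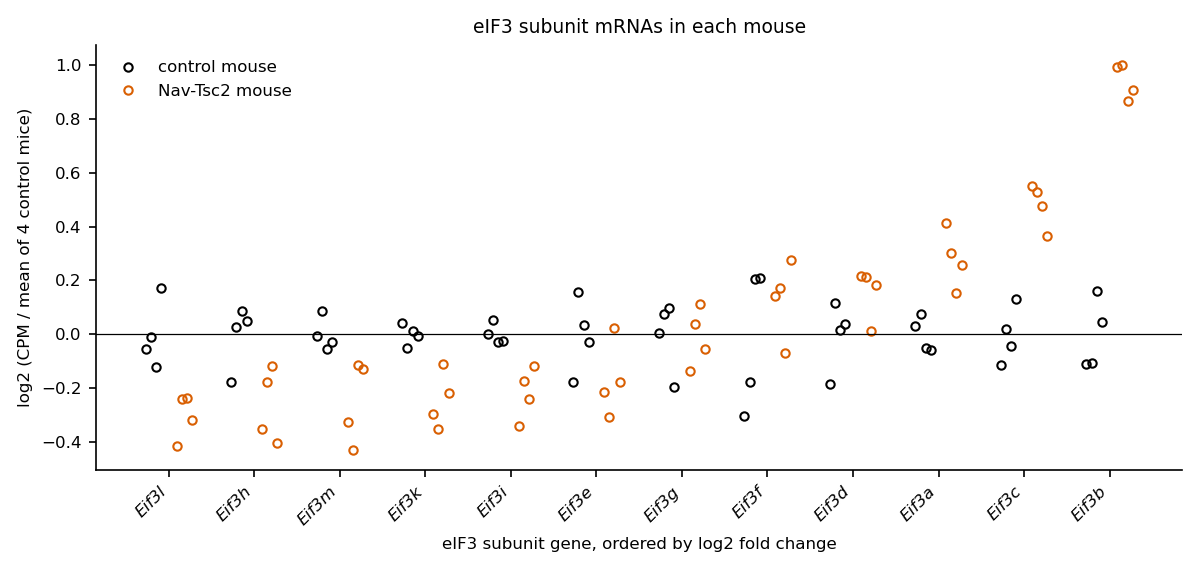
Log2 ratio of each mouse's CPM to the mean of the 4 control mice for the 12 eIF3 subunit genes outside Eif3j, ordered by log2 fold change. Nav-Tsc2 mice (orange) lie above all control mice (black) for Eif3a, Eif3b and Eif3c and below them for Eif3i, Eif3k, Eif3l and Eif3m.

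Among the other initiation factors, 2 genes were called higher, Eif5 and Eif6. Eif5 makes eIF2 hydrolyse its GTP at the start codon and lies on the plus strand of chr12:111538016-111546752. It had 91.6, 109, 117 and 117 CPM in control mice and 170, 147, 173 and 158 CPM in Nav-Tsc2 mice, without overlap (log2 fold change 0.58 ± 0.10, adjusted p = 0.00370, edgeR). Eif6, which keeps the large ribosomal subunit from joining too early, lies on the minus strand of chr2:155819832-155826925. It had 67.2, 59.0, 58.3 and 53.4 CPM in control mice and 90.1, 95.2, 79.1 and 75.8 CPM in Nav-Tsc2 mice (0.52 ± 0.11, adjusted p = 0.00900, edgeR). Eif6 was just past the fold limit, and under upper-quartile scaling its log2 fold change of 0.49 was no longer called. It was also not called without control replicates 3 or 4 or Nav-Tsc2 replicates 1 or 2, where the log2 fold change fell as low as 0.45. Eif1ax and Eif2d, chosen after their values were seen, were lower below the fold limit, with log2 fold changes of -0.41 ± 0.08 (adjusted p = 0.00677, edgeR) and -0.42 ± 0.11 (adjusted p = 0.0275, edgeR). Eif1b, which relates to the start-codon scanning factor eIF1, had the highest level per length of these genes, at 170 CPM per kb in control and 180.4 in Nav-Tsc2 mice, and it overlapped (0.08 ± 0.11). The remaining 5 had log2 fold changes between -0.10 and 0.10.

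Of the 9 core elongation factors 0 were called by edgeR or DESeq2, 3 had an unadjusted p under 0.05 in each, and 2 had an adjusted p under 0.05 (edgeR) below the fold limit. Eef2, the translocase, had 409, 458, 452 and 497 CPM in control mice and 576, 552, 502 and 559.8 CPM in Nav-Tsc2 mice. The groups did not overlap, and the log2 fold change was 0.27 ± 0.08 (adjusted p = 0.0442, edgeR; 0.00525 to 0.0879 over the alternatives that kept all mice). Eef1d, a nucleotide exchange subunit for eEF1A, ranged from 42.9 to 48.5 CPM in control and from 56.5 to 66.4 CPM in Nav-Tsc2 mice (0.39 ± 0.09, adjusted p = 0.0161, edgeR; 0.00107 to 0.0586 over those alternatives).

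Neither of the 2 eEF1A genes passed the test. Eef1a1, the general form, ranged from 362 to 416 CPM in control and from 379 to 424 CPM in Nav-Tsc2 mice, with a log2 fold change of 0.06 ± 0.08 (adjusted p = 0.616, edgeR). Its annotated transcripts shared 40.4% of their 50-base stretches with 21 other genes, and alignments to more than 1 place made up 37.5% to 39.6% of the totals in control libraries and 39.3% to 42.6% in Nav-Tsc2 libraries. The part of this difference in the values of Eef1a1 was not tested. Eef1a2, the form of neurons and muscle, had no such stretches, and ranged from 34.6 to 43.1 CPM in control and from 27.2 to 38.9 CPM in Nav-Tsc2 mice (-0.35 ± 0.14, adjusted p = 0.118, edgeR). Per length Eef1a2 held 10.99% ± 1.24 of the pair in control and 8.44% ± 1.19 in Nav-Tsc2 mice (SD, n = 4), with overlap. Eif5a, the hypusine-carrying factor that helps ribosomes through difficult peptide bonds, had the highest level per length of the elongation factors, at 224 CPM per kb in control and 203 in Nav-Tsc2 mice, and its groups overlapped (-0.14 ± 0.10, adjusted p = 0.383, edgeR).

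**Figure D5:**
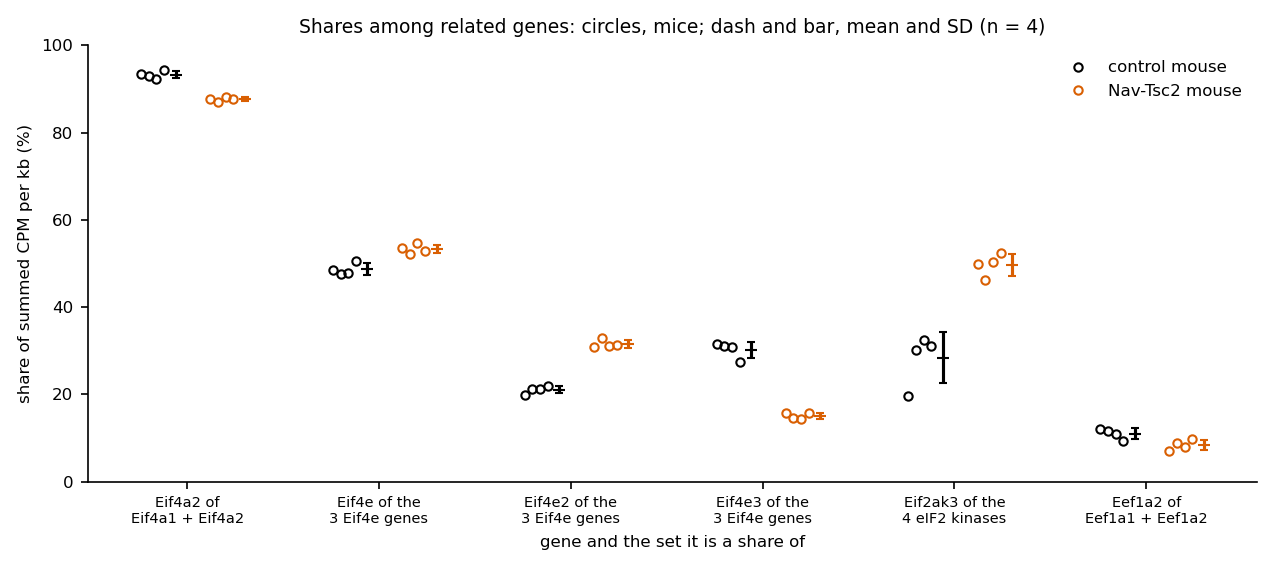
Share that each gene held of the summed CPM per kb of its set in each mouse (circles), with the mean and SD of the 4 mice per genotype. The shares of Eif4a2 (93.3% in control, 87.7% in Nav-Tsc2 mice), the 3 Eif4e genes and Eif2ak3 do not overlap between genotypes, and that of Eef1a2 does.

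Among the modifiers and partners of the elongation factors, 2 of 6 genes were called, in opposite directions, and both act on eEF2. Eef2k, the calcium-dependent kinase that inhibits eEF2, lies on the plus strand of chr7:120842831-120907450. It had 18.83, 16.40, 17.42 and 23.997 CPM in control mice and 38.6, 34.6, 26.7 and 33.9 CPM in Nav-Tsc2 mice, without overlap (log2 fold change 0.80 ± 0.16, adjusted p = 0.00755, edgeR). Eef2kmt, a methyltransferase that acts on a lysine of eEF2, lies on the minus strand of chr16:5244152-5255983. It had 13.0, 11.8, 21.1 and 13.3 CPM in control mice and 8.78, 7.45, 8.64 and 5.81 CPM in Nav-Tsc2 mice (-0.95 ± 0.23, adjusted p = 0.0176, edgeR). The control mouse at 21.1 CPM stood apart from its group, and without Nav-Tsc2 replicate 2 the adjusted p rose to 0.0506 (edgeR). Other genes on either strand covered 23.0% of the Eef2kmt exons. Eef1akmt1, a methyltransferase of eEF1A with the highest level per length of the modifiers, at 86.9 CPM per kb in control and 67.5 in Nav-Tsc2 mice, had a log2 fold change of -0.36 ± 0.13 and overlapped (adjusted p = 0.0755, edgeR).

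The windows before the starts of the eEF2 kinase gene and of its substrate are given as above, and each held CACGTG. The TGATGNAAN match of Eef2k lies before another of its annotated starts, which is not shown.
Eef2k, plus strand of chr7:120842581-120842830, 1 of 3 annotated starts: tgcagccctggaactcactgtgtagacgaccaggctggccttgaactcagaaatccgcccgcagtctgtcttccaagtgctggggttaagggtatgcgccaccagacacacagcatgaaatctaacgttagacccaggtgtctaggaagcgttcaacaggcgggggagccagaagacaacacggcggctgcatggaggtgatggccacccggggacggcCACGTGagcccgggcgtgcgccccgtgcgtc
Eef2, plus strand of chr10:81176381-81176630: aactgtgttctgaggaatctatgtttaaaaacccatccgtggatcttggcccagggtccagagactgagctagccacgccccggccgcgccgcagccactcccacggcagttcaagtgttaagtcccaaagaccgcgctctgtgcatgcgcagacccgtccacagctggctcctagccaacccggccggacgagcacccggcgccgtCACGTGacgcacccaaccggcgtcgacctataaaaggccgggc

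Messages with a 5′ terminal oligopyrimidine (TOP) tract are those whose translation depends most on mTORC1. A list of known TOP mRNAs held 8 members: Eef1a1, Eef1b2, Eef1d, Eef1g, Eef2, Eif3e, Eif3f and Eif3h. Of these 8, 0 were called by edgeR or DESeq2, 3 had an unadjusted p under 0.05 in each, and 2 were higher at an adjusted p under 0.05 (edgeR) below the fold limit, Eef1d and Eef2. Their log2 fold changes lay between -0.26 and 0.39, with a median of 0.10. Among the other 58 tested members 10 were called and the median was 0.02. Those members were not checked for TOP tracts, so they may hold further TOP mRNAs. These counts measure mRNA and not its use by ribosomes.

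Of 45 further genes of the translation pathway, 44 had an identifier and were tested, and 10 were called higher and 2 lower (27.3%, against 17.1% of all genes tested and 22.9% of those averaging at least 10 CPM), with a median log2 fold change of 0.01. Among 6 genes of termination and ribosome rescue, edgeR called 3, all higher, and DESeq2 called 4. Those called by edgeR were the release factors Etf1 (0.57 ± 0.12, adjusted p = 0.00869, edgeR) and Gspt1 (0.68 ± 0.12, adjusted p = 0.00377, edgeR), and the rescue factor Pelo (0.68 ± 0.19, adjusted p = 0.0296, edgeR). Pabpc4, a poly(A)-binding protein, was higher at 1.05 ± 0.22 (adjusted p = 0.00979, edgeR), and so were Cyfip2 at 0.66 ± 0.09 (adjusted p = 0.00125, edgeR) and the eIF5 mimic Bzw2 at 0.60 ± 0.16 (adjusted p = 0.0278, edgeR). Cyfip1, the relative of Cyfip2, had -0.06 ± 0.13 and overlapped between genotypes.

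Among regulators of the eIF4, eIF2 and eEF2 steps, 1 inhibitor and 1 kinase were called lower and 1 kinase and 2 transcription factors higher. Pdcd4, which blocks eIF4A, ranged from 107 to 178 CPM in control and from 59.6 to 81.1 CPM in Nav-Tsc2 mice (log2 fold change -1.004 ± 0.17, adjusted p = 0.00280, edgeR). Mknk2, a kinase that phosphorylates eIF4E, ranged from 10.4 to 14.0 CPM and from 31.5 to 42.1 CPM (1.69 ± 0.15, adjusted p = 0.000120, edgeR). Rps6kb1, the S6 kinase that acts on Eef2k and Pdcd4, ranged from 66.4 to 80.4 CPM and from 41.3 to 58.0 CPM (-0.51 ± 0.12, adjusted p = 0.0180, edgeR). Atf4, whose translation rises when eIF2 is phosphorylated, ranged from 76.1 to 102 CPM and from 194 to 208 CPM (1.19 ± 0.10, adjusted p = 9.36e-05, edgeR), and its target Ddit3 from 57.6 to 79.9 CPM and from 165 to 194 CPM (1.35 ± 0.12, adjusted p = 0.000132, edgeR). The 2 regulatory subunits that return eIF2 to its unphosphorylated form, Ppp1r15a and Ppp1r15b, had 0.23 ± 0.15 and 0.22 ± 0.13 and overlapped. Dhps, which starts the hypusine modification of eIF5A, was higher (0.80 ± 0.12, adjusted p = 0.00211, edgeR), whereas Dohh, which completes it, had 0.09 ± 0.19. The 6 diphthamide enzymes of eEF2 had 0 calls and 0 unadjusted p under 0.05 (edgeR and DESeq2), with log2 fold changes between -0.37 and 0.01.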

How the data were processed

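Gene counts of 24 libraries were analysed, each made from 100 sorted cells; every one of the 8 mice gave 3 such libraries, which are technical replicates. The authors amplified cDNA with the SMARTer Ultra Low kit, which does not mark strand or molecules, sequenced single reads of 50 bases, aligned them to mm10 with STAR and counted them with HTSeq. The files the authors deposited hold raw counts, 1 value for each gene in each library. HTSeq leaves out reads that map to more than 1 place or overlap more than 1 gene. A table of the authors' own DESeq2 comparison was not used here. Tool versions are not given in the sources used here.

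The 3 libraries of each mouse were added together, filtered with filterByExpr and tested with edgeR 4.0.16 in R 4.3.3 (quasi-likelihood F-test, TMM scaling, genotype as the only term, Benjamini-Hochberg over 17178 genes). The SE was derived from the log2 fold change and F. Alternatives used DESeq2 1.42.0 and limma 3.58.1. Symbols and exon lengths came from GENCODE vM21 (GRCm38), which gave symbols to 47224 of 47643 identifiers; levels per length divide CPM by the union of a gene's exons. The test was tried on simulated counts. Because reads carry no molecular identifiers, depth limits are counting error only, and the SD between mice is given instead.

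The members and lists were chosen with earlier results of these data known. The genes named were Tsc2, each called member, in each role group the member with the smallest adjusted p and that with the highest level per length, the eIF2 kinases, the 4E-BPs, Eif2s3x, Eif2s3y, Eef1a1, Eef1a2, Eef2 and Eef2k, and each called gene of the 45 further genes. Other genes named were chosen after their values were seen. Replicate numbers 1 to 4 occur in both genotypes. Over 8445 genes, deviations from the genotype mean correlated at 0.184, 0.185, 0.108 and 0.199 for mice of the same number, all above 0.1, so a fit with the replicate number as a block was made beside the main one. Mice of the same number also share their sex. Mice of the same sex but of different number correlated at 0.198, 0.0627, 0.11 and 0.185. For mice of opposite sex the values lay between -0.251 and -0.0826. The correlations for equal numbers are therefore no sign of pairing beyond shared sex.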

Additional observations from a re-analysis of the deposited data

Results flagged for a closer look

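In the control group, Eef2kmt was at 21.1 CPM in replicate 3, and the other 3 mice lay between 11.8 and 13.3 CPM. The gap was 0.845 of the group's range, above the 95% critical value of Dixon's test for 4 values. Over 56 such groups of 4 mice, 1 was flagged, and chance alone flags about 1 in 20 groups. Without this mouse the call for Eef2kmt was kept.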

How the results depend on the processing

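The same 10 members were called under DESeq2, DESeq2-style size factors, no low-count filter, the replicate block (7 higher, 3 lower), sex as a covariate, libraries weighted equally and the 24-library fit that treats the mouse as random. The block changed no call of a member and lowered the calls over all genes to 1329 higher and 1116 lower. Under upper-quartile scaling 9 of the 10 were called, and Eif6 was lost. With no limit on the fold change, 13 members were higher and 6 lower. Leaving out 1 mouse at a time gave between 5 and 8 members called higher and between 2 and 4 called lower. The median of all genes tested lay between -0.02 and 0.09 on the log2 scale over these settings. On the same leave-outs the median log2 fold change ranged from -0.00225 to 0.146 for the eIF2 family, from -0.12 to 0.0861 for the eIF3 family, from 0.10 to 0.17 for the eIF4 family, from -0.16 to -0.0859 for the elongation family and from -0.0554 to 0.0666 for the other initiation factors, so the signs of the eIF2, eIF3 and other initiation medians are not fixed. Genes near 0 changed sign: Eif2ak2 was at -0.0116 under upper-quartile scaling, and on leaving out a mouse Eif2ak2 ranged from -0.12 to 0.22, Eif2ak1 from -0.00301 to 0.27, Eif1b from -0.00252 to 0.15, Eif2s1 from -0.0381 to 0.0883 and Eif2s3y, present in males only, from -1.36 to 0.10. The cause was not tested. Of 232 other comparisons of a named gene with its main value, 230 kept their direction and side of the threshold; of 232 that left out a mouse, 209 did. No member had an interaction of genotype and sex with no filter (edgeR, 2 at an unadjusted p under 0.05), with other size factors (3) or with DESeq2 (2). Over all genes, 618 of 30194, 1 of 17178 and 296 of 17178 had an adjusted p under 0.05 in these fits. The tested member with the fewest counts was Eef1akmt3, with 146 over all mice.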
